A study of Mus musculus with 6 samples.

Results

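The cytosolic ribosomal proteins were compared between CCR9+ plasmacytoid dendritic cells (pDCs) and CCR9- pDC-like dendritic cell precursors of mouse bone marrow. Members were chosen by symbol. Every probe was taken whose symbol, in the platform annotation or in the current RefSeq gene table, was Rpl or Rps with a number, Rplp0, Rplp1, Rplp2 or Rpsa, and ribosomal S6 kinase genes and pseudogene symbols were left out. This gave 63 of the 19057 genes with a probe on the array, measured by 93 of its 45281 probes. The large (60S) subunit contributed 58 probes of 38 genes and the small (40S) subunit 35 probes of 25 genes. Both groups came from the bone marrow of female C57BL/6 mice aged 7 weeks, and the cells were sorted by FACS. Each group had 3 single-colour Illumina arrays of total RNA from independent isolations. Neither group carried a transgene or received a treatment, per the labels, and no source used here says how many animals went into an isolation.

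A ribosome is built from ribosomal RNA and a set of ribosomal proteins, most of them present in a single copy, so a cell makes these proteins in roughly matched amounts. Their mRNAs are among the most abundant in a cell. Most begin with a short run of pyrimidines at the 5′ end, the terminal oligopyrimidine (TOP) motif, through which the kinase complex mTORC1 and the RNA-binding protein LARP1 control their translation rather than their transcription. Proliferating cells need many new ribosomes. A pDC is a largely non-dividing cell that can release large amounts of type I interferon, and CCR9 is a chemokine receptor of mature pDCs.

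The start regions of the genes whose signals differed between the groups are shown here because the TOP motif lies at the transcription start. They are 30 bases of mouse assembly GRCm38.p6 as RefSeq annotates it, printed 5′ to 3′ on the gene's strand, with 12 bases before and 18 after the annotated start. Capitals mark the longest run of C or T in the printed stretch, wherever it lies relative to the start. For a gene with several annotated starts, the stretch with the longest such run is printed. Rpl21 matched no entry of the promoter table.
Rpl38 (chr11:114668568-114668597, plus strand): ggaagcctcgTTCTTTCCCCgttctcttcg
Rpl3l (chr17:24727814-24727843, plus strand): tgttctagctctgtcatttgaCCTCTggtg
Rpl4 (chr9:64173375-64173404, plus strand): CTTTTCCTgtgggagcagccgggtagagag
Rplp0 (chr5:115559455-115559484, plus strand): ttcgggtttcgaggaccgcctggTTCTCCT
Rps24 (chr14:24490666-24490695, plus strand): gcgctggggTCCTTCCTTgcgcgttgatat
Rps27l (chr9:66946074-66946103, plus strand): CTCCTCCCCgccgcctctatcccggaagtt

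Among the other tested members, apart from genes of a chromosome left out of the ranking, these had the longest pyrimidine runs in the printed stretch. They are shown for the length of the run, which need not begin at the annotated start and so need not be a TOP motif.
Rpl27a (chr7:109519183-109519212, plus strand): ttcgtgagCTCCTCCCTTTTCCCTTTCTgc
Rpl7a (chr2:26910795-26910824, plus strand): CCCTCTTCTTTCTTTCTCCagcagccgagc
Rpl35 (chr2:39005114-39005143, minus strand): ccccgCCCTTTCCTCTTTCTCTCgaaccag
Rpl34 (chr3:130730320-130730349, minus strand): TCCTTTTCCTCTTCCggggacggtgctcag

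Of the 63 member genes, 52 matched the promoter table, with 62 entries. For the count of runs, the entry with the longest run stood for a gene with several. A run of at least 7 pyrimidines within 30 bases on either side of the start was present in 33 of the 52 (63.5%), against 37.4% of all 27025 genes in the table. The Rpl3l stretch held no run longer than 5. A further 3 motifs were searched on both strands in the whole window, 250 bases before to 50 after the start. A match in any entry of a gene counted, so genes with several entries had more sequence searched. CCGGAAG, the core bound by ETS factors, was found in 23 genes (44.2%), against 9.93% of all genes. AAGATGG, the core of the YY1 motif, was found in 8 (15.4%), against 7.28%. TATAAA, the TATA box, was found in 6 (11.5%), against 15.7%. Such a match describes these letters and is not a measured binding site. The median log2 difference between the groups was -0.11 over the 41 tested probes of the 30 genes with a pyrimidine run and -0.06 over the 23 tested probes of the 17 genes without one. The gap between these medians was not tested. Limma called 5 of the 41 and 1 of the 23, where 29.3% of all tested probes were called.

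Signals are given on a log2 scale after background correction and quantile normalization, which sets all arrays to the same distribution. A difference is CCR9+ pDC minus CCR9- precursor, so a negative value is lower in CCR9+ pDC. A probe was tested when its detection p, the chance that a negative control bead is as bright, was below 0.05 on at least 3 of the 6 arrays. That held for 77 member probes of 56 genes, and 73 of them were detected on all 6 arrays. Of the other 16 probes, 13 were detected on no array. The remaining 3, of Rpl7l1, Rps19 and Rpsa, were detected on 1 or 2 arrays. No tested probe was left for Rpl14, Rpl17, Rpl39l, Rpl6, Rps20, Rps23 and Rpsa, of which Rpsa, the laminin receptor precursor and a 40S protein, had a probe detected on 1 array of each group. Differences were called at a limma adjusted p (Benjamini-Hochberg over all 16857 tested probes) below 0.05. RNA came from pools of sorted cells, so fewer cells of a type and less RNA per cell cannot be told apart.

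The arrays were of similar brightness, with median probe signals of 136 to 164 and 15254 to 16905 probes detected. CCR9+ pDC replicate 3 stood apart, with the fewest detected probes and a mean within-group correlation of 0.970 over all tested probes, where replicates 1 and 2 had 0.979 and 0.982 and the precursor arrays 0.990 to 0.991. Over member probes alone the same correlation was 0.9971, 0.9973 and 0.9965 for CCR9+ pDC replicates 1, 2 and 3, against 0.9976 to 0.9982 in precursors. The probe for Ccr9, the gene used in the sort, was above background on no array, so it does not check the labels. Of 17 tested probes for pDC markers, 7 were higher and 2 lower in CCR9+ pDC (summed signals 86754 to 98614, against 70294 to 77807 in precursors). All 8 tested probes of cycling genes were lower, with a median difference of -2.35 and summed linear signals of 3203 to 3650 in CCR9+ pDC arrays, against 17455 to 18892 in precursor arrays. Markers of macrophages (15 of 16 tested probes higher, summed signals 38016 to 45998 against 3963 to 4871), of granulocytes (11 of 11, 94817 to 106911 against 48916 to 57510) and of basophils and mast cells (6 of 7, 2505 to 4356 against 591 to 1013) were higher in CCR9+ pDC. C1qa, a complement gene of macrophages, was above background on no precursor array. C1qb and C1qc were each detected on 2 of 3 precursor arrays, and Mrc1 on all 3. Higher calls were also made for 3 of 7 erythroid probes (89381 to 145717 against 68359 to 98284), 2 of 5 B cell probes (2366 to 2871 against 1358 to 1496) and 2 of 4 T and NK cell probes (682 to 830 against 433 to 505), although Cd8a, Ncr1 and Klrb1c were above background on no array. Of 8 probes for conventional dendritic cells, 3 were higher and 2 lower (16471 to 18438 against 9215 to 10504), and Zbtb46, a transcription factor of that lineage, was above background on no CCR9+ pDC array. The part of other cells or of cycling in the ribosomal protein values was not tested.

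Most ribosomal protein mRNAs differed little between the populations. Of the 77 tested probes 1 was called higher and 7 lower in CCR9+ pDC (10.4%), against 29.3% of all tested probes, of which 13.7% were called higher and 15.6% lower. The median size of a member's difference, in either direction, was 0.11 on the log2 scale, against 0.30 over all tested probes. The 95% interval of the difference lay within 1.5-fold in either direction for 54 of the 77 (70.1%), against 34.4% of all tested probes. The share of members called was 24.7% without background correction, in the authors' values and with an intensity-trended robust prior, against 33%, 32.7% and 32.8% of all tested probes. At an unadjusted p below 0.05 limma gave 19 members, against 6795 of all 16857. Groups did not overlap for 27 members that were lower and 6 that were higher in CCR9+ pDC (42.9%), against 46.4% of all tested probes.

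**Figure D1:**
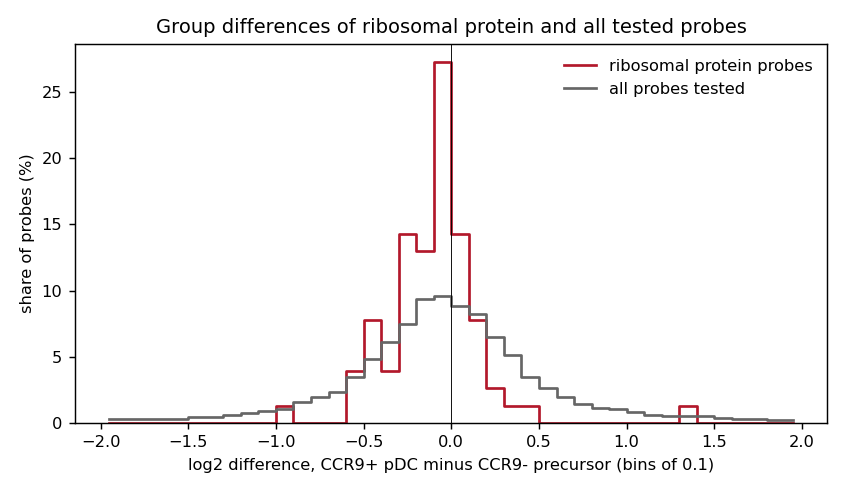
Share of probes (percent) by log2 difference, CCR9+ pDC minus CCR9- precursor, in bins of 0.1, for the 77 tested ribosomal protein probes (red) and all 16857 tested probes (grey); differences beyond 2 in either direction are not drawn. The ribosomal protein probes lie closer to 0, with a median size of 0.11 against 0.30.

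The median difference of the members was -0.08 after quantile normalization, and it changed sign, to 0.11, in the authors' processed values. The median of all tested probes was -0.04 after quantile normalization and 0.01 in the authors' values. Of the 77 member probes 55 (71.4%) had a negative difference, against 53.6% of all tested probes, and 27 had one in the authors' values. The deviations of the members from their own means had medians of -0.06, -0.05 and -0.01 on the CCR9+ pDC arrays, against 0.05, 0.03 and 0.07 on the precursor arrays. Each of the 3 CCR9+ pDC arrays was below each of the 3 precursor arrays. As a share of the background-corrected signal of an array before normalization, member probes made up 4.98%, 5.04% and 5.33% in CCR9+ pDC, against 5.13%, 5.04% and 5.19% in precursors, and these ranges overlap.

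Of 48 tested 60S probes 1 was called higher and 5 lower (12.5%, against 29.3% of all tested probes), with a median difference of -0.08. Of 29 tested 40S probes none was called higher and 2 lower (6.9%), also with a median of -0.08, against -0.04 for all tested probes. An unadjusted limma p below 0.05 was found for 7 of the 29, against 6795 of all 16857. Both subunit medians share the dependence on scaling given above.

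**Figure D2:**
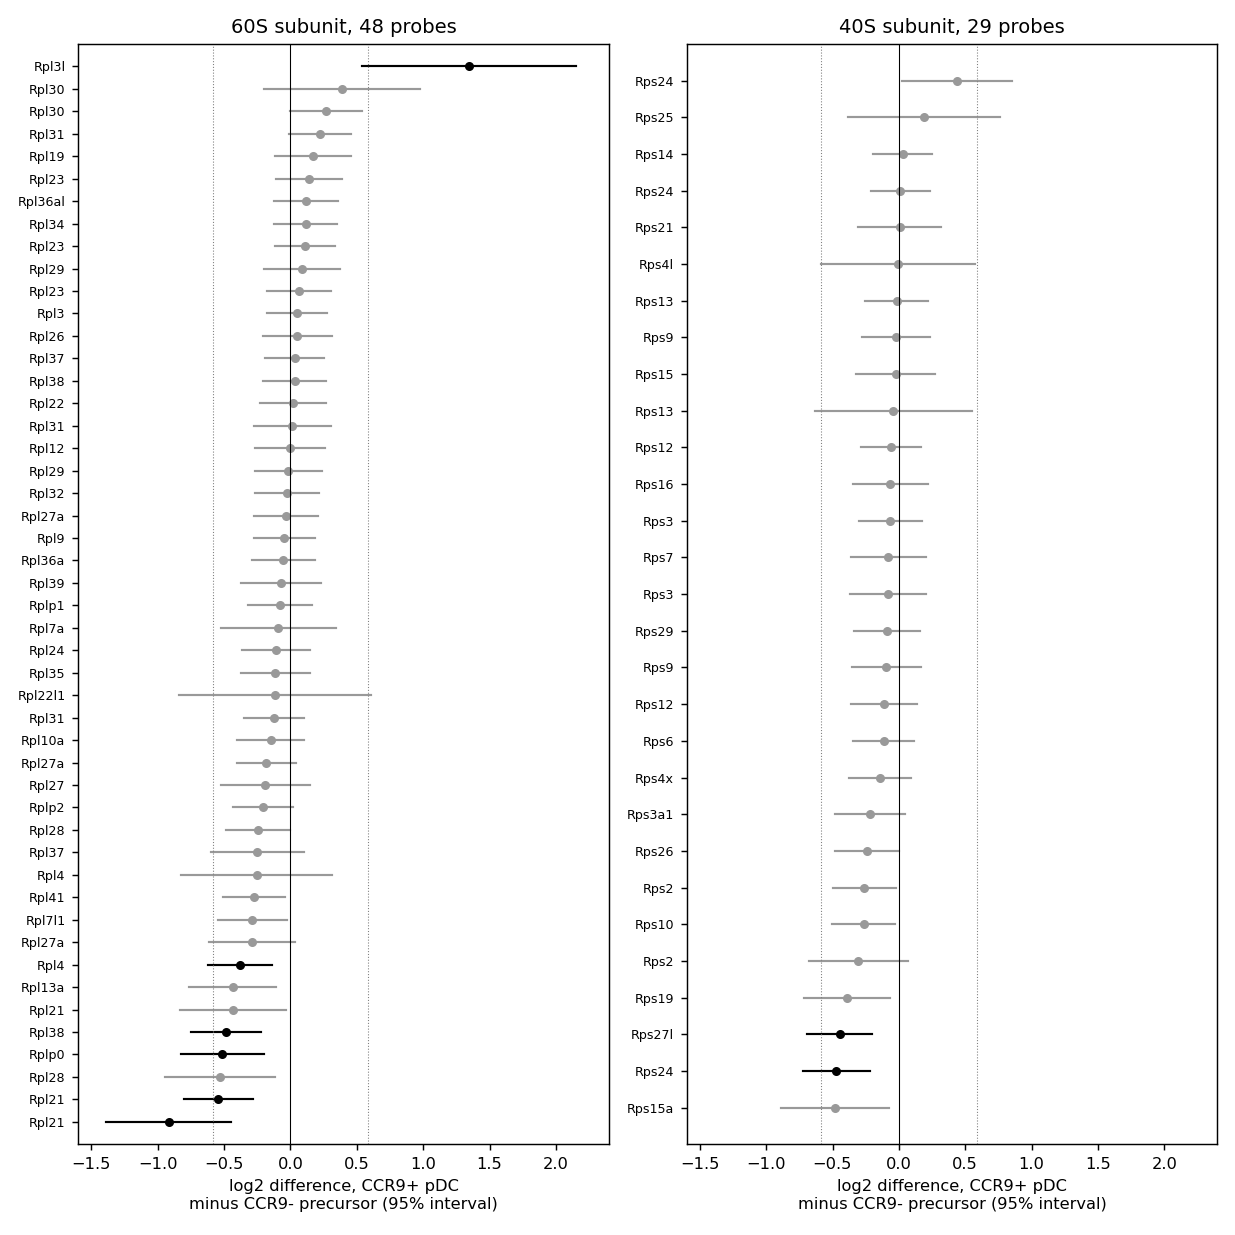
Log2 difference, CCR9+ pDC minus CCR9- precursor, of each tested ribosomal protein probe with its 95% interval (x axis), for 48 probes of the 60S subunit (left) and 29 of the 40S subunit (right), labelled by gene; dotted lines mark 1.5-fold and black probes have a limma adjusted p below 0.05. Most intervals include 0, and Rpl3l stands to the right of all other probes.

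Calls were also counted by brightness. Among the 41 members with a mean log2 signal of at least 12, 1 was called (2.44%), against 35.4% of the 881 tested probes of that brightness. An interval within 1.5-fold was found for 38 of these members (92.7%), against 57.2% of the 881. Among the 36 dimmer members, 7 were called (19.4%, against 29% of all tested probes under 12). An interval within 1.5-fold was found for 16 of them (44.4%, against 33.2%). The split was smaller under other settings. Without background correction 1 bright member was called higher and 7 lower, against 1 and 10 of the dimmer ones, and with the trended robust prior these were 1 and 8, against 1 and 9. In the authors' values they were 8 and 1, against 3 and 7. On every array 6 member probes, of Rpl23, Rpl38, Rpl41, Rpl9, Rplp1 and Rps29, had at least 50% of the brightest signal of that array. Their differences ran from -0.28 to 0.06 and limma called none, Rpl41 having the lowest unadjusted p (0.0275). Compression at the top of the scale was not tested.

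The P stalk is the arm of the large subunit that recruits and activates translation factors. Rplp0, its base, had signals of 8.19, 8.13 and 8.49 in CCR9+ pDC, against 8.74, 8.71 and 8.90 in precursors. Every CCR9+ pDC array was below every precursor array, and the mean was 8.27 ± 0.19 against 8.78 ± 0.10 (SD, n = 3 arrays each), a difference of -0.51 (limma adjusted p = 0.0274). Without any 1 of CCR9+ pDC replicates 1 and 2 and precursor replicates 1, 2 and 3 the call was lost, at adjusted p values of 0.0673 to 0.0934, and over all 16 alternatives these ran from 0.00741 to 0.0934. Rplp1, one of the acidic proteins on the stalk, had signals of 15.43, 15.34 and 15.27 in CCR9+ pDC, against 15.51, 15.41 and 15.37 in precursors. These overlap, and the difference was -0.08 (limma adjusted p = 0.602), with the opposite sign under cyclic loess and in the authors' values. Rplp2, the other acidic protein, had signals of 13.99, 13.96 and 13.90 in CCR9+ pDC, against 14.18, 14.09 and 14.20 in precursors. The groups did not overlap, but the difference of -0.21 was not called (limma adjusted p = 0.149) and was 0.01 in the authors' values. Another probe of Rplp0 and another of Rplp2 were above background on no array. The tested Rplp0 probe was far dimmer than those of Rplp1 and Rplp2 on every array, and which transcripts it detects was not tested.

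The exit tunnel of the 60S subunit, through which the new chain leaves, is lined or surrounded by Rpl4, Rpl17, Rpl39, Rpl35, Rpl31, Rpl26, Rpl19 and others. Of 9 tested probes of 6 such genes 1 was called, lower (11.1%, against 29.3% of all tested probes), and the median difference was -0.07. That probe, of Rpl4 (ILMN_2874507), had signals of 10.82, 11.01 and 10.82 in CCR9+ pDC, against 11.27, 11.26 and 11.26 in precursors. The precursor arrays hardly differed, and the difference was -0.38 (limma adjusted p = 0.0316). The call was lost without any 1 array except CCR9+ pDC replicate 2, at adjusted p values of 0.0522 to 0.101, within a range of 0.00396 to 0.106 over its 16 alternatives. The other Rpl4 probe (ILMN_2631003), detected on 1 CCR9+ pDC and 2 precursor arrays, differed by -0.26 (limma adjusted p = 0.473), and by -0.53 without CCR9+ pDC replicate 3, where it was called (limma adjusted p = 0.0408, the lowest of its 14 alternatives, which reached 0.775). Rpl31 had 3 probes with differences of -0.13, 0.02 and 0.22, none of them called. Rpl5 and Rpl11, which form a particle with 5S RNA and restrain Mdm2 when ribosome assembly is disturbed, had no probe among the members and were not analysed here.

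Rpl21, a 60S protein, was the gene with the most calls. The probe ILMN_1225201 had signals of 7.35, 7.56 and 7.53 in CCR9+ pDC, against 8.01, 8.10 and 7.95 in precursors. Its means were 7.48 ± 0.12 and 8.02 ± 0.08, a difference of -0.54 (limma adjusted p = 0.0105), and it was called under all 16 alternatives (adjusted p 0.00439 to 0.0495). The probe ILMN_2688863 had signals of 5.80, 6.31 and 5.64 in CCR9+ pDC, where it was above background on 2 of 3 arrays, against 6.66, 7.01 and 6.83 in precursors. All precursor arrays were again higher, and the difference was -0.92 (limma adjusted p = 0.0141), at 0.0598 without precursor replicate 2 and 0.0504 without precursor replicate 3, and from 0.00562 over its 14 alternatives. The difference was -0.36 without background correction and -0.33 in the authors' values. The third probe, ILMN_1222250, had signals of 6.37, 6.68 and 7.00 in CCR9+ pDC, against 7.18, 7.09 and 7.09 in precursors. It did not overlap either, but its difference of -0.44 was not called (limma adjusted p = 0.0996). All tested Rpl21 probes were among the dimmer members, with mean log2 signals of 6.38 to 7.75.

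**Figure D3:**
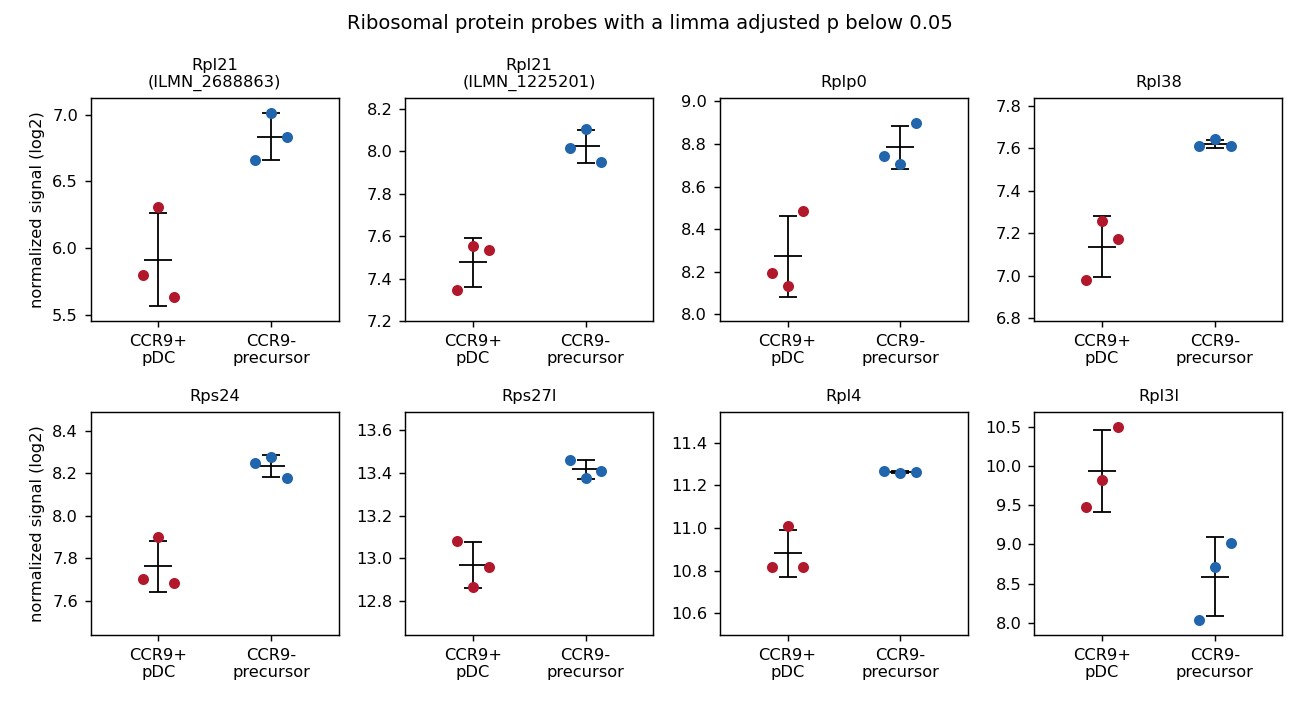
Normalized log2 signal of the 8 ribosomal protein probes with a limma adjusted p below 0.05 on each array, CCR9+ pDC (red) left of CCR9- precursor (blue), with the mean and SD of 3 arrays; each panel has its own signal axis, and the Rpl38, Rps24 and Rpl4 panels show 1 of several tested probes of these genes. No panel has overlapping groups, and Rpl3l alone is higher in CCR9+ pDC.

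Rpl38, a 60S protein needed in mouse embryos for the translation of certain Hox mRNAs, was measured by a pair of probes, of which 1 was called. The probe ILMN_2594971 had signals of 6.98, 7.26 and 7.17 in CCR9+ pDC, against 7.61, 7.64 and 7.61 in precursors. Its difference was -0.48 (limma adjusted p = 0.0177), at 0.0635, 0.0691 and 0.0581 without precursor replicates 1, 2 and 3, and between 0.00791 and 0.102 over its 15 alternatives. The other probe, ILMN_3135931, had signals of 15.23, 15.22 and 15.28 in CCR9+ pDC, against 15.27, 15.10 and 15.28 in precursors. Its groups overlapped, with a difference of 0.03 (95% interval -0.21 to 0.27). In the authors' values it was called higher, at 0.37 (limma adjusted p = 0.0106), while ILMN_2594971 was called lower there.

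The small subunit consists of a head, which holds among others Rps3, Rps10, Rps12, Rps15, Rps16, Rps19, Rps25 and Rps29, and a body, with Rps2, Rps4x, Rps6, Rps9, Rps14, Rps24 and others. None of 10 tested head probes was called by limma, where 29.3% of all tested probes were. An unadjusted limma p below 0.05 was found for 2 of them, against 6795 of all 16857, and their median difference was -0.07. Rps19, the gene most often mutated in human Diamond-Blackfan anaemia, had signals of 14.06, 13.75 and 13.66 in CCR9+ pDC, against 14.30, 14.12 and 14.23 in precursors. The groups did not overlap, and the difference of -0.39 was not called (limma adjusted p = 0.0739), though it was called without background correction (0.027) and with the trended prior (0.015). Of 17 tested body probes 1 was called, lower (5.88%, against 29.3% of all tested probes), and the median difference was -0.10. Rps6, the substrate of the S6 kinases, had signals of 13.41, 13.50 and 13.52 in CCR9+ pDC, against 13.66, 13.56 and 13.57 in precursors. Its difference was -0.11 (95% interval -0.34 to 0.11, limma adjusted p = 0.42) and was 0.11 in the authors' values. Rps15a had signals of 8.14, 8.30 and 8.62 in CCR9+ pDC, against 8.62, 8.84 and 9.05 in precursors. Its difference of -0.48, the lowest of the 40S probes, was not called (limma adjusted p = 0.0779). It was called lower under median scaling (0.00855), without background correction (0.043), in the authors' values (0.0352) and with the trended prior (0.0384).

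Rps24 holds the only called body probe and the widest spread within a gene. Its product is needed to process the precursor of 18S RNA. The called probe, ILMN_2625060, had signals of 7.70, 7.90 and 7.68 in CCR9+ pDC, against 8.25, 8.28 and 8.18 in precursors. Its difference was -0.47 (limma adjusted p = 0.0171), at 0.0658 without precursor replicate 1 and 0.07 without precursor replicate 2, and between 0.00736 and 0.965 over its 15 alternatives. The probe ILMN_1214875 went the other way, at 6.11, 6.60 and 5.98 in CCR9+ pDC, against 5.75, 5.84 and 5.79 in precursors. Its difference of 0.44 was not called (limma adjusted p = 0.107), except without CCR9+ pDC replicate 3, at 0.59 (limma adjusted p = 0.0401, the lowest of its 14 alternatives, which reached 0.965). The probe ILMN_3126986 had signals of 14.66, 14.69 and 14.80 in CCR9+ pDC, against 14.69, 14.71 and 14.71 in precursors, a difference of 0.01 (95% interval -0.21 to 0.24). The probe ILMN_2502673 was above background on no array.

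Over the 16 genes with more than 1 tested probe (37 probes), the gap between the highest and the lowest difference of a gene had a median of 0.12 and reached 0.91 for Rps24. The narrowest gap, 0.02, was that of Rps3, a 40S protein at the mRNA entry. Calls were made for 4 of these genes, Rpl21, Rpl38, Rpl4 and Rps24, and for none of them by all of its probes. After quantile normalization no gene had probes called in opposite directions. In the authors' values Rpl38 did, at -0.25 (ILMN_2594971, limma adjusted p = 0.026) and 0.37 (ILMN_3135931, limma adjusted p = 0.0106). When the probes of a gene were averaged before the fit, the calls of Rpl4 (limma adjusted p = 0.106), Rpl38 (0.102) and Rps24 (0.965) were lost. Rpl28 had differences of -0.53 (limma adjusted p = 0.0621) and -0.25, and the first of these was called under 5 of 15 alternatives, at limma adjusted p values of 0.0274 under median scaling, 0.044 without background correction, 0.0387 with the stricter probe filter, 0.031 with its probes averaged and 0.0434 without CCR9+ pDC replicate 2. Over all 15 the adjusted p reached 0.173. Rpl30 had 0.39 (limma adjusted p = 0.29) and 0.27, and its first probe was called at 0.67 without precursor replicate 2 (limma adjusted p = 0.0276, the lowest of 15 alternatives, which reached 0.62). Which transcripts or pseudogene copies a probe also detects was not tested, since the probe sequences were not used here.

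**Figure D4:**
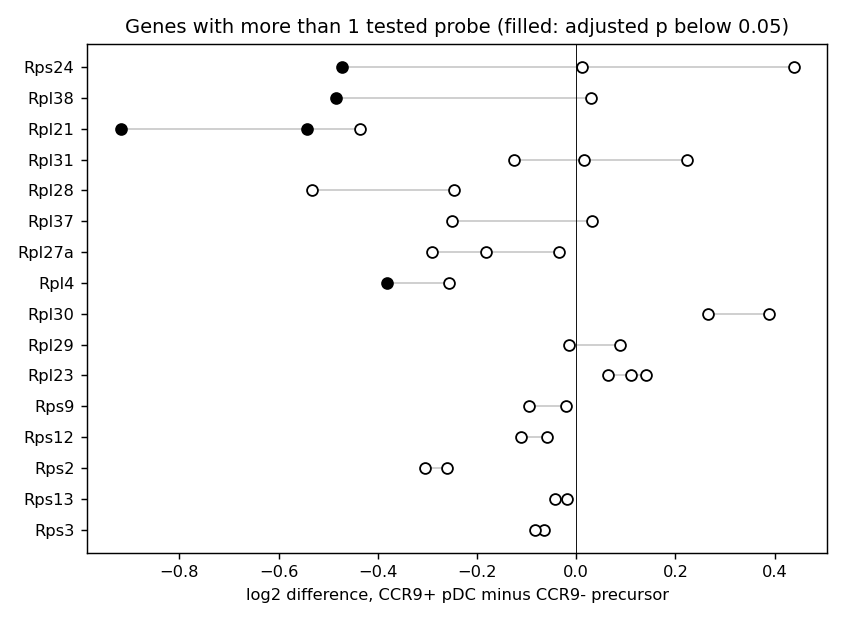
Log2 difference, CCR9+ pDC minus CCR9- precursor (x axis), of every tested probe of the 16 ribosomal protein genes with more than 1 tested probe, 1 gene per row, ordered by the gap between probes; filled points have a limma adjusted p below 0.05. Probes of Rps24 range from -0.47 to 0.44, while those of Rps3 lie 0.02 apart.

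Of 6 tested paralog probes 1 was called higher and 1 lower (33.3%), a share near the 29.3% of all tested probes. Rpl3l, a copy of Rpl3 known mainly from heart and skeletal muscle, had signals of 9.47, 9.82 and 10.50 in CCR9+ pDC, against 8.03, 8.71 and 9.02 in precursors. All CCR9+ pDC arrays were above all precursor arrays, with means of 9.93 ± 0.52 and 8.59 ± 0.51, 2.54-fold higher in CCR9+ pDC (log2 difference 1.34 ± 0.34 SE, limma adjusted p = 0.0257). Leaving out CCR9+ pDC replicate 2 ended the call (limma adjusted p = 0.0622), as did leaving out precursor replicate 1 (0.0705) or 2 (0.0691), with differences of 1.07 to 1.40. Over its 16 alternatives the adjusted p ran from 0.00325 to 0.0705. Rpl3 itself, which lies near the peptidyl transferase centre, differed by 0.05 (95% interval -0.17 to 0.28). Rps27l, a p53-regulated copy of Rps27, had signals of 13.08, 12.87 and 12.96 in CCR9+ pDC, against 13.46, 13.38 and 13.41 in precursors. It was 1.36-fold higher in precursors (log2 difference -0.45, limma adjusted p = 0.0185), and the call was lost without CCR9+ pDC replicate 2 or any 1 precursor array (limma adjusted p 0.0574 to 0.0753, and from 0.000754 over its 16 alternatives).

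The other paralogs were not called. Rpl7l1, a copy of Rpl7, had signals of 9.91, 9.94 and 9.99 in CCR9+ pDC, against 10.21, 10.38 and 10.12 in precursors, a difference of -0.29 without overlap (limma adjusted p = 0.0942). It was called lower under median scaling, without background correction and with the trended prior (limma adjusted p from 0.0344, up to 0.263 over 16 alternatives). Rpl36al, a copy of Rpl36a, differed by 0.11 (limma adjusted p = 0.442), by -0.06 under median scaling and by 0.29 in the authors' values, where it was called. Rpl22l1, a copy of Rpl22, was detected on 1 CCR9+ pDC and 2 precursor arrays and differed by -0.12 (limma adjusted p = 0.805). Its difference turned positive without CCR9+ pDC replicate 1 (0.12) or precursor replicate 2 (0.07). Rps4l, a copy of Rps4x, differed by -0.01 (95% interval -0.59 to 0.57, limma adjusted p = 0.986), with a sign that changed between settings, to 0.10, 0.11 and 0.18 without CCR9+ pDC replicate 1, CCR9+ pDC replicate 3 and precursor replicate 2. Rpl39l, a copy of Rpl39 known from testis, was above background on no array.

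The genes whose mutations cause Diamond-Blackfan anaemia, an inherited failure of red cell production in humans, were counted as a group. Of 19 listed genes 11 had a probe. Of their 15 tested probes 1 was called, the Rps24 probe above (6.67%, against 29.3% of all tested probes). The median difference was -0.11. Erythroid markers had a median difference of 0.55, with 3 of 7 probes called higher in CCR9+ pDC, and their part in these values was not tested.

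**Figure D5:**
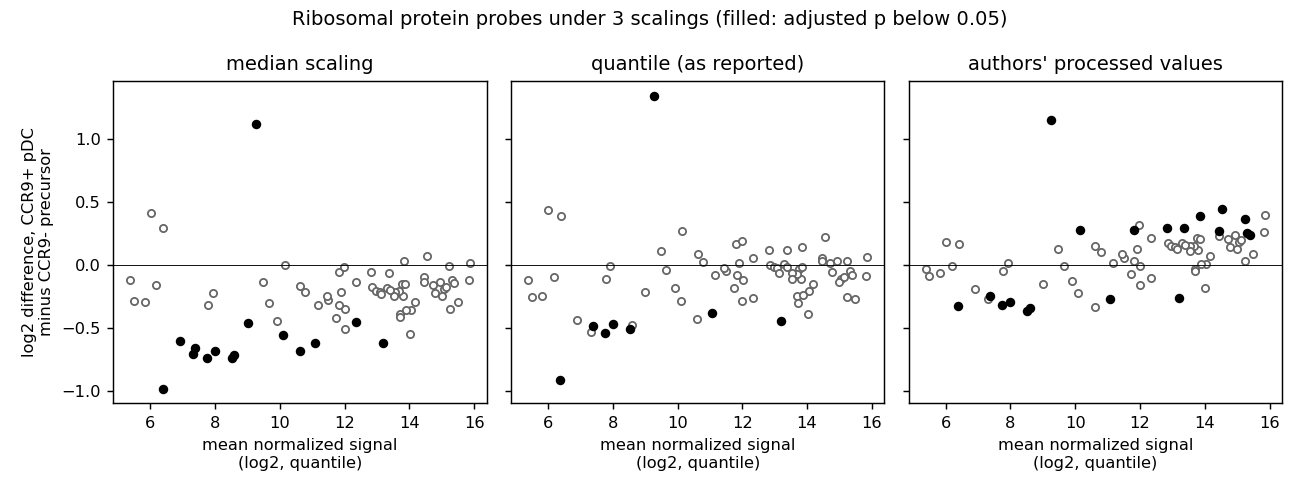
Log2 difference, CCR9+ pDC minus CCR9- precursor (y axis), of the 77 tested ribosomal protein probes against their mean quantile-normalized log2 signal (x axis), under median scaling (left), quantile normalization (middle) and in the authors' processed values (right); filled points have a limma adjusted p below 0.05. The bright probes shift together, with medians of -0.20, -0.06 and 0.16 for those of mean 12 or more.

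The position of the family as a whole depended on the scaling of the arrays. Median scaling moved the median of all tested probes to -0.19 and that of the members to -0.23, which is -0.04 relative to all probes, as under quantile normalization. It called 1 member higher and 14 lower. Under cyclic loess the member median was -0.0044, with 1 higher and 7 lower. In the authors' processed values 11 members were called higher and 8 lower, and the member median was 0.10 above that of all probes. The 8 higher calls among the bright members there included Rpl31 (0.44), Rpl38 (0.37) and Rplp1 (0.23), probes without a call after quantile normalization. All 8 probes called after quantile normalization were called in the same direction under median scaling, under cyclic loess, without background correction, in the authors' values and with an intensity-trended robust prior. Without precursor replicate 2 there were 1 lower and 1 higher call. Leaving out precursor replicate 1 gave 2 lower calls and none higher, and leaving out precursor replicate 3 gave 2 lower and 1 higher. Without CCR9+ pDC replicate 3 there were 10 lower and 2 higher calls.

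Genes that work with the ribosome were counted from lists, and 14 of their 80 tested probes were called, against 29.3% of all tested probes. Of 7 tested ribosome-linked probes 2 were called, both lower and both of Naca, the alpha chain of the complex that shields new chains at the tunnel exit. Its probe ILMN_2651643 had means of 7.16 ± 0.07 in CCR9+ pDC and 7.94 ± 0.05 in precursors (SD, n = 3 arrays each). The difference was -0.78 (limma adjusted p = 0.00132), and that of ILMN_2651642 was -0.82 (limma adjusted p = 0.0268), while the third Naca probe, ILMN_2955104, differed by -0.13 (limma adjusted p = 0.405). None of 15 elongation factor probes was called by limma, 3 had an unadjusted p below 0.05, and their median difference was -0.26. Eef2, which moves the ribosome along the mRNA, had signals of 9.99, 9.81 and 7.60 in CCR9+ pDC, against 9.45, 9.37 and 9.61 in precursors (ILMN_1239110). CCR9+ pDC replicate 3 alone was low there, and also for the other Eef2 probes. It was also the lowest CCR9+ pDC array for every Eif5a probe. The median of -0.26 is the value of an Eef2 probe (ILMN_1252294), and the median without replicate 3 was not computed.

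Of 39 initiation factor probes 1 was called higher and 6 lower (17.9%, against 29.3% of all tested probes), with a median difference of -0.23. The median without CCR9+ pDC replicate 3 was not computed. Eif4a2, an RNA helicase, differed by 0.41 (ILMN_2976829, limma adjusted p = 0.0457) and in its other probes by 0.31 and 0.21, which were not called. Its relative Eif4a1 differed by -0.52 (ILMN_2959480, limma adjusted p = 0.00896). Eif4a1 had signals of 12.91, 12.99 and 12.80 in CCR9+ pDC, against 13.39, 13.45 and 13.40 in precursors, and no array overlapped. The other Eif4a1 probe, ILMN_2618481, differed by -0.95 and was not called (limma adjusted p = 0.193). Of 17 tested probes of the eIF3 scaffold 3 were called, all lower (17.6%), where 15.6% of all tested probes were called lower. Eif3i was the third gene with a call. The called probes included Eif3c at -0.70 (ILMN_2615741, limma adjusted p = 0.0459) and Eif3a at -0.56 (ILMN_2845039, limma adjusted p = 0.0232, detected on 1 of 3 CCR9+ pDC arrays). This Eif3c probe had signals of 8.45, 8.22 and 7.69 in CCR9+ pDC, lowest on replicate 3, against 8.94, 8.64 and 8.88 in precursors. The other Eif3c probe, ILMN_1223428, differed by -0.34 (limma adjusted p = 0.0952), and the other Eif3a probe, ILMN_2735157, differed by 0.13 (limma adjusted p = 0.64). A probe of Pabpc1, the poly(A)-binding protein, fell below background in all of CCR9+ pDC, with precursors at least 1.36-fold higher (ILMN_1259769, limma adjusted p = 0.0456). That bound sets the precursor mean against, on each CCR9+ pDC array, the higher of the probe's own signal and the lowest signal of a detected probe. The other Pabpc1 probes were not called: ILMN_1259482, detected on all 6 arrays, differed by -0.19 (limma adjusted p = 0.194) and ILMN_2705407 by -0.52 (limma adjusted p = 0.295). The latter had signals of 6.35, 6.76 and 5.47 in CCR9+ pDC, lowest on replicate 3, against 6.74, 6.43 and 6.97 in precursors.

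Of 19 tested probes of translation regulators 3 were called higher and 2 lower (26.3%), a share near the 29.3% of all tested probes. Eef2k, the kinase that inhibits Eef2, had signals of 7.63, 7.49 and 7.43 in CCR9+ pDC, against 8.68, 8.48 and 8.31 in precursors. That was a difference of -0.97 (limma adjusted p = 0.00192). Rheb, the small GTPase that activates mTORC1, was lower, at -0.38 (limma adjusted p = 0.0304). Rptor, a subunit of mTORC1, was higher by 0.41 (ILMN_1250017, limma adjusted p = 0.0219), while its other probe, ILMN_2566658, differed by -0.01 (limma adjusted p = 0.955). Both probes of Tsc2, which inhibits Rheb, were higher by 0.31 (limma adjusted p = 0.045 and 0.0481). The 2 tested probes of Mtor differed by -0.10 and -0.05 and were not called. Without precursor replicate 1 or 2 the calls over these lists numbered 3, without precursor replicate 3 they numbered 4, without CCR9+ pDC replicates 1 and 2 they numbered 8 and 5, and without CCR9+ pDC replicate 3 they numbered 19.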

How the data were processed

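Total RNA was labelled with a TargetAmp-Nano kit and hybridized to Illumina arrays, per the labels' protocols. The authors deposited a non-normalized intensity per probe with a detection p-value, per the file headers. BeadStudio and lumi are named in the submitters' processing notes, without versions. The authors also deposited a processed set of linear intensity values, with medians of 153.3 to 154.0 per array. Its normalization and background correction are unknown. Its columns are named by sample, and each correlated by rank with the non-normalized signals of its own array (at least 0.9997).

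Here, the detection p-values served to correct the background (normexp, offset 16), arrays were quantile-normalized and log2-transformed, and all 16857 probes with detection p below 0.05 on at least 3 of 6 arrays were fitted with limma 3.58.1 (lmFit, eBayes; 4 residual and 2.61 prior degrees of freedom) in R 4.3.3, with the R package data.table (version 1.17.8). P-values were adjusted over all of them. The code was checked on simulated data. Precision is limited by 3 arrays per group. Gene names came from the platform annotation (34885 probes with 1 symbol, 18 with several, 10378 with none), updated through Entrez identifiers for 34807 probes. Named were the P stalk, Rpl4, Rpl5, Rpl11, Rps6, Rpsa, all paralogs, called members, members above background on no array, the 3 highest and 3 lowest, and up to 3 called genes per pathway list and direction. Rps15a, Rps19, Rpl3, Rpl31, Eef2, Mtor, Eif4a1 and other probes of named genes were added after their values were seen. The members and all lists were chosen with earlier results of these data known. Alternatives covered scaling, background, probe filter, variance prior, probes per gene, replicate block and each array left out.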

Additional observations from a re-analysis of the deposited data

How the results depend on the processing

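The counts and the median of the ribosomal protein probes changed with several settings. Calls of members, higher and lower, numbered 2 and 17 without background correction, 2 and 17 with an intensity-trended robust prior, 1 and 14 under median scaling, 1 and 12 with detection p below 0.01 on all 6 arrays and 11 and 8 in the authors' processed values, against 1 and 7 as reported. The member median was -0.23 under median scaling, -0.0044 under cyclic loess and 0.11 in the authors' values, against -0.08. Pathway list calls numbered 25 without background correction, 25 with the trended prior, 7 without a probe filter and 8 with probes averaged per gene, against 14. Median scaling also made 30.7% of all calls higher ones, against 46.7%. Leaving out single arrays gave 0 to 2 higher and 1 to 10 lower member calls, member medians of -0.0967 to -0.0467 and 3 to 19 pathway calls. The cause of these changes was not tested.

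Signs changed for Rplp1 (0.0593 under cyclic loess, 0.23 in the authors' values), Rplp2 (0.00714) and Rps6 (0.11) in the authors' values, Rpl36al (-0.0621 under median scaling), Rps4l (0.021 under cyclic loess, 0.0166 in the authors' values, and -0.225 to 0.177 with single arrays left out), Rpl22l1 (-0.389 to 0.119 with single arrays left out) and the Rps24 probe ILMN_1214875, whose gene came to -0.00725 when its probes were averaged. Over the named member probes and alternatives, 239 results kept direction and side of the threshold, 28 lost and 13 gained a call, and 13 changed sign.

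The replicate numbers were not taken as pairs. Deviations of same-numbered arrays correlated at 0.33, 0.02 and 0.24, and those of differently numbered arrays at -0.295 to 0.09. CCR9+ pDC replicate 2 correlated better with precursor replicate 1 (0.09) than with its own number. The values 0.33 and 0.24 were above all those between different numbers, so these correlations do not settle whether the numbers are pairs. With the number as a block the members had 1 higher and 7 lower calls, 7 of the 8 being the same probes: Rpl4 ILMN_2874507 lost its call (adjusted p 0.0598) and Rps15a gained one (0.0274, lower). All probes together had 4670 calls, against 4940, and 7 in the pathway lists. Probes near background limit what can be said of Rpl21 ILMN_2688863, Rpl4 ILMN_2631003 and Rpl22l1.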
